A study of Brassica napus with 12 samples.

Results

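The transcripts described here are 45 of the 60756 gene IDs counted in canola (Brassica napus) leaf. They differed between the EUE epiline and its control while both PEG lines stayed close to theirs. They were chosen by measured values. The level of an ID in a library was written as log2(CPM + 0.5), where CPM is its count per 1000000 counts of that library. An ID entered when its mean over the 6 EUE libraries was at least 1 CPM and all 3 EUE epiline libraries lay above, or all below, all 3 EUE control libraries. The group means also had to differ by at least 1 on that log2 scale, and neither PEG-1 nor PEG-2 could differ from PEG control by 0.5 or more. Of the members, 40 were higher and 5 were lower in the EUE epiline.

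The study compared lines of canola selected for low respiration and a high content of NAD(P)H, the reduced carriers that link metabolism to respiration. The 5 groups were the EUE epiline and its EUE control with 3 libraries each, and the PEG-1 line, the PEG-2 line and their PEG control with 2 libraries each. All plants, controls included, were the same winter-type oilseed cultivar, 26 days old, grown for 2 weeks on agar and 12 days in soil, and left untreated. Leaf 4 was used, the labels call every library a biological replicate, and they do not say how many plants each library pooled. An epiline is a line selected from one genetic background whose differences are thought to lie largely in inherited chromatin states, and each line here is 1 selected line.

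Polysomes are messenger RNAs carrying several ribosomes. RNA taken from a polysome pellet is read as a stand-in for RNA in use for protein synthesis, which was not itself measured here. A polysomal level can move with the amount of a transcript or with the part of it that is ribosome-bound, and in a whole leaf also with the number of cells that hold it. These cannot be told apart here. Canola is an allopolyploid with many near-identical gene copies, and reads shared by copies can be split between them or counted at 1 copy.

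No gene name comes with an ID, and a match to the RefSeq genes of the species found 0, so no function is given, lists of respiratory or NAD(P)H genes could not be applied, and leaf markers were not checked. Library totals ran from 36210542 to 42696798 counts. Every count was even (0 odd values), which would follow from counting the 2 mates of each pair, and a count of 2 may be a single fragment. The EUE and PEG libraries belong to separate experiments, each with its own control, and any level set across the experiments carries that difference too.

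In EUE 27792 IDs averaged 1 CPM or more, of which 494 (1.78%) met the EUE limits in the higher direction and 8 (0.0288%) in the lower. Both PEG limits were met by 85.7% of the 27792. The whole rule left 40 higher IDs (0.144%) and 5 lower IDs (0.018%), so 454 other IDs that rose in EUE by the same limits, and 3 that fell, also differed by 0.5 or more in at least 1 PEG line. The direction and size of the members' EUE differences and the smallness of their PEG differences are set by the rule and are given as a description, with no test.

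**Figure D1:**
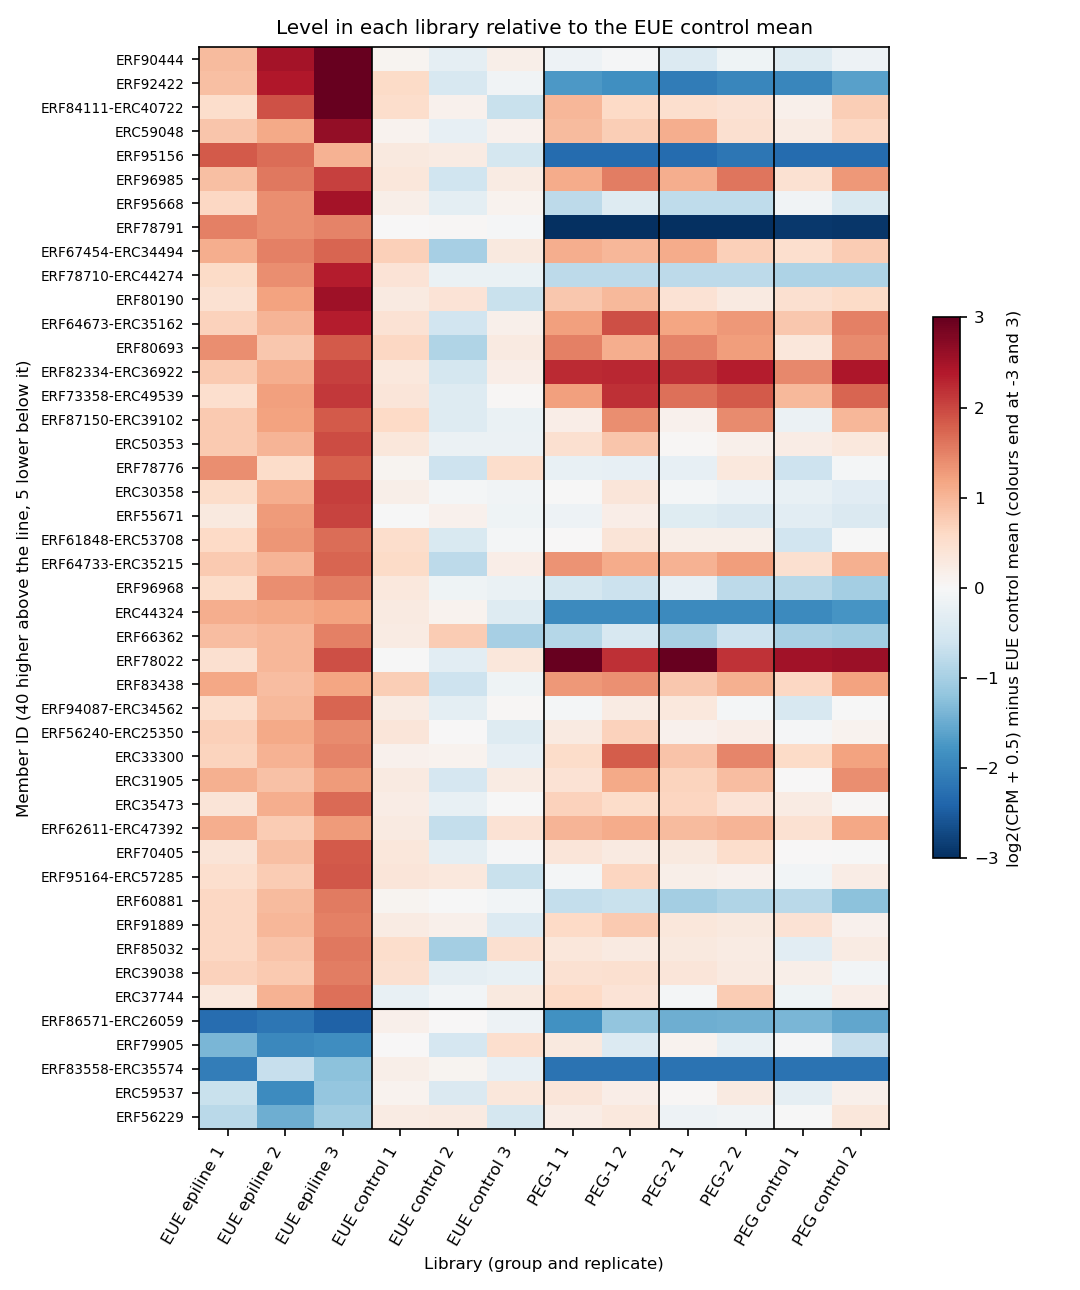
Level of each of the 45 members in each of the 12 libraries, as log2(CPM + 0.5) minus the EUE control mean of that ID; rows are members (40 higher above the line, 5 lower below it), columns are libraries, red is above and blue below the EUE control mean. Within the EUE epiline the colour is deepest in replicate 3 for most higher members, and the PEG columns hold members far below, near and far above the EUE control level.

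The 40 higher members had EUE differences between 1.00 and 2.20 on the log2 scale, with a median of 1.20, beside 1.60 for the 454 other IDs that met the EUE limits and 0.03 over all 27792 IDs. The median of their mean levels was 9.50 CPM in the EUE epiline and 3.46 CPM in the EUE control, and it was 4.89 CPM in PEG-1, 4.59 CPM in PEG-2 and 3.61 CPM in PEG control. The levels of single members ranged widely around these medians, with means from 2.07 to 46.3 CPM in the EUE epiline and from 0.235 to 20.3 CPM in the EUE control. Of the 40, 6 had an EUE control mean under 1 CPM and so met the minimum through the epiline.

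ERF84111-ERC40722 had the largest EUE difference among the members with a mean of at least 1 CPM in PEG. It was at 2.82, 8.01 and 18.4 CPM in EUE epiline replicates 1, 2 and 3, against 2.80, 2.01 and 0.937 CPM in EUE control replicates 1, 2 and 3. The EUE groups were separated only narrowly, because EUE epiline replicate 1 stood just above EUE control replicate 1. In PEG it was at 4.09 and 2.98 CPM in PEG-1, at 2.72 and 2.60 CPM in PEG-2 and at 2.04 and 3.33 CPM in PEG control, and these groups overlapped. The EUE means were 9.75 ± 7.95 CPM in the epiline and 1.91 ± 0.934 CPM in the control (SD, n = 3 each), and the log2 difference was 1.83.

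ERC59048, the next in size, was at 2.82, 3.63 and 11.0 CPM in the EUE epiline and at 1.51, 1.09 and 1.55 CPM in the EUE control. EUE epiline replicate 3 again stood well above the other two epiline libraries, and the log2 difference was 1.53. In PEG it was at 3.12 and 2.61 CPM in PEG-1, at 3.45 and 2.10 CPM in PEG-2 and at 1.71 and 2.38 CPM in PEG control. Both PEG-1 libraries lay above both PEG control libraries, by 0.41 on average, inside the limit of 0.5.

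ERF55671 had the highest CPM of all members in EUE (counts not divided by gene length). It was at 21.7, 43.4 and 73.8 CPM in EUE epiline replicates 1, 2 and 3, and at 17.5, 19.3 and 16.2 CPM in the EUE control. The control libraries lay close together, while epiline replicate 3 stood far above epiline replicate 1. PEG-1 had 15.7 and 20.2 CPM, PEG-2 had 13.5 and 12.9 CPM and PEG control had 14.0 and 12.9 CPM. All of these except PEG-1 replicate 2 lay below every EUE control library. The EUE means were 46.3 ± 26.1 CPM in the epiline and 17.7 ± 1.57 CPM in the control (SD, n = 3 each), a ratio of 2.62 between means.

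ERF90444 had the largest EUE difference of the 40 higher members, 2.20 (1.19 with a pseudocount of 2 in place of 0.5), and was nearly absent elsewhere. It was at 0.903, 3.63 and 6.01 CPM in EUE epiline replicates 1, 2 and 3 (34, 146 and 246 counts), against 0.269, 0.109 and 0.328 CPM in the EUE control (10, 4 and 14 counts). The 6 PEG libraries held between 0.0522 and 0.209 CPM, at most 8 counts each. Its PEG differences, 0.18 in PEG-1 and 0.00 in PEG-2, therefore compare levels near the smallest that could be counted.

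**Figure D2:**
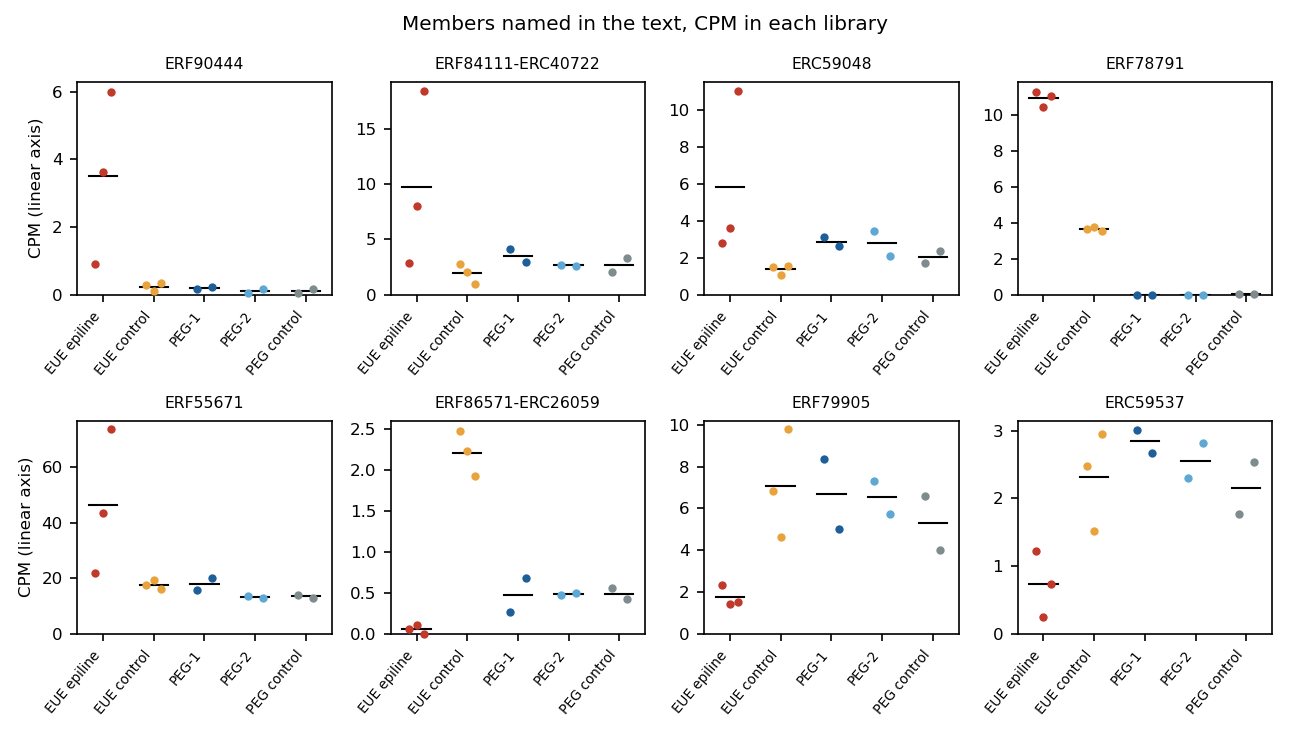
CPM in each library for the 7 members named by rule and ERF78791, on linear axes that start at 0; points are libraries, grouped as EUE epiline, EUE control, PEG-1, PEG-2 and PEG control, and bars are group means. The EUE epiline points spread widely in ERF90444, ERF84111-ERC40722, ERC59048 and ERF55671, and lie together in ERF78791.

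The small PEG differences of the higher members were mostly on the same side as the EUE difference. The PEG-1 difference was above 0 in 36 of 40 (53.6% of all 27792 IDs), the PEG-2 difference in 33 of 40 (53.1% of all IDs), and both in 32 of 40 (37.8% of all IDs). Medians were 0.35 in PEG-1 (range -0.31 to 0.49) and 0.17 in PEG-2 (range -0.49 to 0.49), beside 0.02 over all IDs in both lines and 1.41 in PEG-1 and 0.95 in PEG-2 for the 454 other IDs that rose in EUE. Both PEG-1 libraries lay above both PEG control libraries in 21 of 40 (18.4% of all IDs), and both PEG-2 libraries did in 8 of 40 (13.8% of all IDs). Since the rule caps these differences and was applied to them, the counts describe the members and test nothing.

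**Figure D3:**
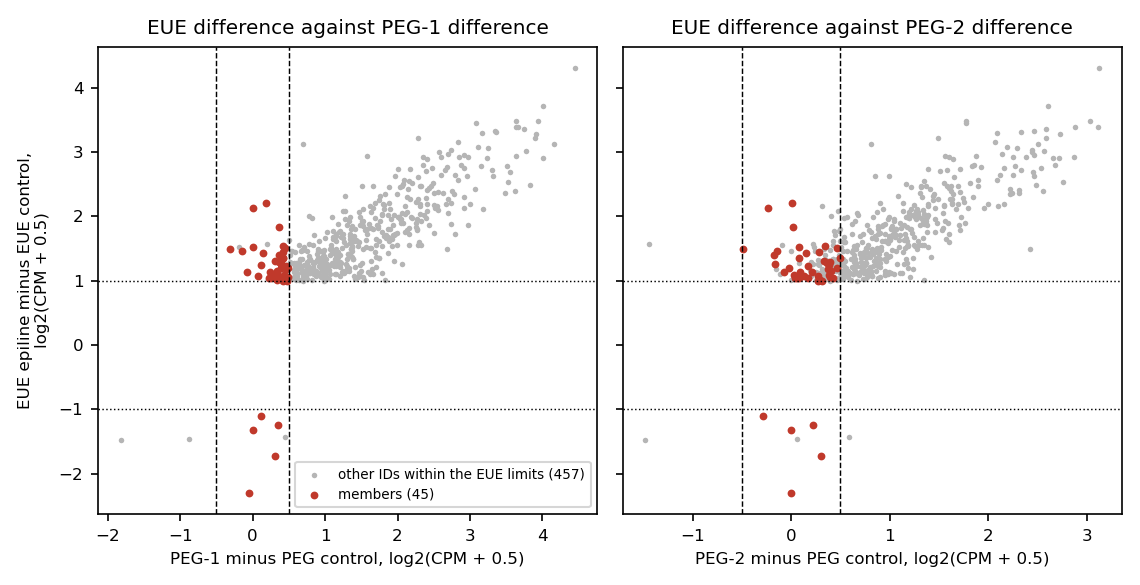
Difference between the EUE epiline and the EUE control against the difference between PEG-1 (left) or PEG-2 (right) and PEG control, all as log2(CPM + 0.5); red points are the 45 members, grey points the 457 other IDs within the EUE limits, dashed and dotted lines the limits of 0.5 and 1. The members form the edge of a cloud that runs on beyond the PEG limit without a gap, with PEG-1 medians of 0.35 for the 40 higher members and 1.41 for the 454 other higher IDs.

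The edge of the set was not a break in the values. The larger PEG difference of the last higher member inside the limit was 0.49, and that of the first ID outside it was 0.50; 17 members had a larger PEG difference of at least 0.4, and 18 further IDs within the EUE limits lay between 0.5 and 0.6. The smallest EUE difference inside was 1.00 and the largest outside was 0.99, and 14 members differed by less than 1.1 in size. Among the lower IDs the EUE difference nearest the limit was -1.10 inside and -0.90 outside, and the larger PEG difference was 0.35 inside and 0.59 outside. The lowest mean over EUE was 1.13 CPM inside and 0.92 CPM outside the minimum.

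A PEG difference under 0.5 did not show that a PEG line was unchanged. Of the 32 higher members with a mean of at least 1 CPM in PEG, edgeR's quasi-likelihood fit put the 95% interval of the log2 fold change within -1 and 1 for 0 in PEG-1 and for 5 in PEG-2. That interval reached 1 or more for 31 of the 32 in PEG-1 and for 25 in PEG-2, and it reached -1 or less for 4 in PEG-1 and 8 in PEG-2. Standard errors had a median of 0.49 in each line. With the replicate number as a block, 3 intervals lay within 1 in PEG-1 and 10 in PEG-2, though a pairing of the PEG libraries was not shown. A change in PEG as large as the one that defines the members in EUE was thus inside most of these intervals.

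These intervals draw their spread from all 12 libraries, so single libraries moved the counts. In PEG-1 the count within 1, 0 with all libraries, was 8 without EUE epiline replicate 3, 3 without EUE epiline replicate 1, 2 without EUE control replicate 2 and 1 without EUE control replicate 3. In PEG-2 the count of 5 was 8 without EUE epiline replicate 1 or replicate 3, 2 without either PEG-1 library and 1 without any 1 of the PEG-2 or PEG control libraries.

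The edgeR test of the EUE epiline against the EUE control was fitted without the replicate number as a block. It called 0 of the 36410 tested IDs (0.0%) at an adjusted p of 0.05, and so 0 of the 45 members. All 45 members passed its filter on low counts. Unadjusted p-values were under 0.05 for 39 of the 40 higher and all 5 lower members, as the rule would bring about. DESeq2 called 382 IDs (1.05%), 20 members among them. In the blocked edgeR fit 69 IDs were called (0.19%), 5 members among them: ERF78791, ERF90444, ERF95156, ERF79905 and ERF86571-ERC26059. Without EUE epiline replicate 1 the unblocked fit called 205 IDs and 11 members. The direct comparison that the description of the members implies, the EUE effect minus the mean effect of PEG-1 and PEG-2, called 0 of 36410 IDs (0.0%). Unadjusted p-values in it were under 0.05 for 11 higher and 4 lower members. The rule chose members on these same differences, and no share over all IDs is set beside these counts, so they test nothing. DESeq2 called 2 IDs in this comparison (0.0042%), and ERF86571-ERC26059 was the only member among them.

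The libraries of the EUE epiline contributed unequally. EUE epiline replicate 3 was the highest of its group in 38 of the 40 higher members, against 26.9% of all 27792 IDs, and replicate 1 was the lowest in 33 of 40, against 34.7%. In the EUE control, replicate 1 was the highest in 30 of 40 (32.8% of all IDs) and replicate 2 the lowest in 25 of 40 (33.6%). The 454 other IDs that rose in EUE showed the same order, with EUE epiline replicate 3 the highest in 371 (81.7%). The rule did not ask which replicate was highest or lowest, but it chose the members on the values of these same EUE libraries. These counts therefore describe the members and test nothing.

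**Figure D4:**
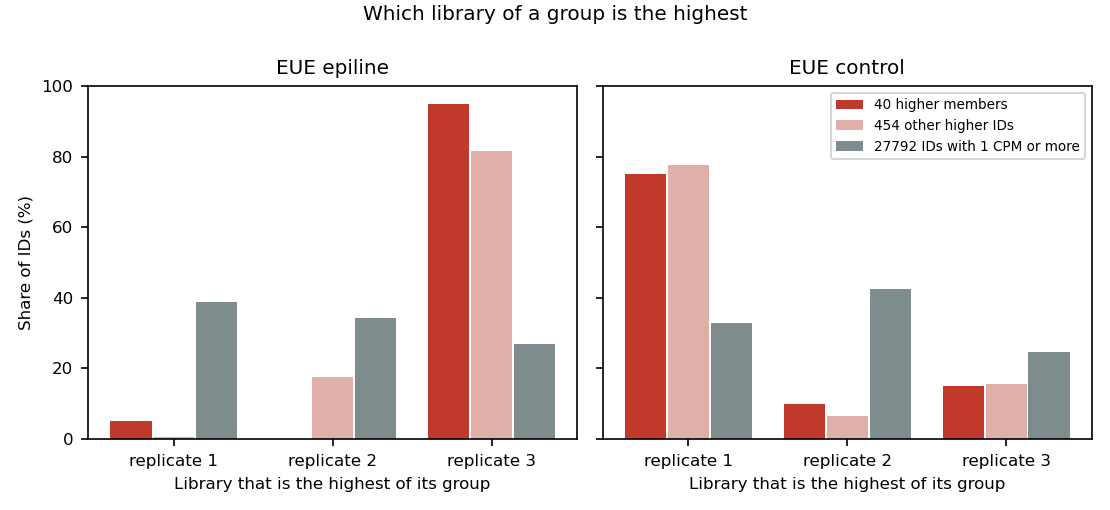
Share of IDs in which each replicate is the highest of its group, in the EUE epiline (left) and the EUE control (right); bars are percentages of the 40 higher members, of the 454 other higher IDs and of the 27792 IDs with 1 CPM or more. Replicate 3 of the EUE epiline is the highest in 38 of the 40 higher members and in 26.9% of all IDs.

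Same-numbered EUE libraries deviated together from their group means over 17455 well-covered IDs, but the higher members did not follow this throughout. Their median deviation in the epiline and the control was -0.52 and 0.30 for replicate 1, and 0.57 and -0.05 for replicate 3. Only replicate 2, at -0.10 and -0.26, deviated to the same side. The differences within a number are therefore given as a description. The median difference of the higher members was 0.37 between the libraries numbered 1, 1.39 between those numbered 2 and 1.77 between those numbered 3, while over all IDs it was 0.05, 0.01 and 0.05. The 454 other IDs that rose in EUE had the same order, at 0.49, 2.12 and 2.26. All 40 were higher in the epiline in every number, and the smallest difference was 0.01, between the libraries numbered 1. All 3 differences reached 1 in 3 of 40 higher members, ERF78776, ERF78791 and ERF95156 (0.234% of all IDs). That is 7.5% of the higher members, fewer than the 61 of 454 other IDs that rose in EUE (13.4%). The lower members had medians of -1.37, -1.43 and -1.48, and all 3 differences reached -1 in 2 of 5, ERF79905 and ERF86571-ERC26059 (0.0108% of all IDs).

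The spread within the EUE groups was wide for the higher members. The SD of log2(CPM + 0.5) among the 3 libraries had a median of 0.60 in the EUE epiline and 0.40 in the EUE control, against 0.30 and 0.29 over all IDs. It was wider still, 0.73 and 0.47, for the 454 other IDs that rose in EUE. Within the PEG groups, which the rule reads only as means, replicate 2 minus replicate 1 had a median over the higher members of 0.06 for PEG-1, 0.04 for PEG-2 and 0.29 for PEG control, against 0.00, -0.12 and -0.07 over all IDs. In PEG control the higher members were thus higher in replicate 2 at the median. The 454 other IDs that rose in EUE were so in each PEG group, with medians of 0.72 for PEG-1, 0.39 for PEG-2 and 0.38 for PEG control. Neither the wide spread nor this order was particular to the members. Whether a sampling or growth difference between libraries moves with these members was not tested.

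Leaving out single libraries and applying the rule again changed the number of higher members from 40 to 19 without EUE epiline replicate 3, of which 11 were among the 40. It gave 116 without EUE epiline replicate 1, 79 without EUE epiline replicate 2, 115 without EUE control replicate 1 and 90 without PEG control replicate 1. The count of 5 lower members became 12 without EUE epiline replicate 1, 18 without EUE epiline replicate 2 and 19 without EUE control replicate 3. The members that met the rule in all 12 such repeats were 4, namely ERF78791, ERF90444, ERF92422 and ERF95156. All 4 were among the 6 higher members with under 0.2 CPM in PEG, where the PEG limits were easily met.

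Those low levels in PEG set a group of the members apart. The mean over the 6 PEG libraries was under 1 CPM in 8 of 40 higher and 2 of 5 lower members (6.16% of all IDs), and under 0.2 CPM in 6 of 40 higher and 1 of 5 lower members (0.453% of all IDs). For a transcript near 0 in all PEG libraries the log2(CPM + 0.5) difference cannot reach 0.5, so the rule says nothing of whether such a transcript changed in a PEG line. The 6 higher members were ERC44324, ERF78710-ERC44274, ERF78791, ERF90444, ERF92422 and ERF95156, which, apart from ERF90444, were picked out after their values were seen.

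ERF78791 was the steadiest of these. It was at 11.3, 10.4 and 11.1 CPM in the EUE epiline (426, 420 and 454 counts), against 3.66, 3.75 and 3.56 CPM in the EUE control (136, 138 and 152 counts). The groups lay far apart next to their spread, at 11.0 ± 0.451 CPM and 3.66 ± 0.0944 CPM (SD, n = 3 each), a ratio of 3.00. In PEG it had 0 counts in all 4 libraries of PEG-1 and PEG-2 and 2 counts in each PEG control library, where a count of 0 allows a level of up to 0.157 to 0.166 CPM (3 read pairs, or 6 counts, per library, counting error only).

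ERF95156 was likewise counted almost solely in EUE, with 8.34, 7.41 and 4.64 CPM in EUE epiline replicates 1, 2 and 3 and 2.53, 2.44 and 1.22 CPM in EUE control replicates 1, 2 and 3. Replicate 3 was the lowest in both groups, and each same-numbered difference lay between 1.43 and 1.58. In PEG it had 2 counts in 1 PEG-2 library and 0 in the other 5 libraries.

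ERF92422 was at 3.88, 11.8 and 19.6 CPM in the EUE epiline and at 3.01, 1.20 and 1.69 CPM in the EUE control, and had between 2 and 10 counts in each PEG library. Its EUE epiline libraries were ordered like those of most higher members, with replicate 3 the highest. ERC44324 was at 3.51, 3.63 and 3.81 CPM in the EUE epiline and at 1.78, 1.52 and 0.937 CPM in the EUE control, with at most 2 counts in a PEG library. ERF78710-ERC44274 was at 0.903, 1.99 and 4.35 CPM in the EUE epiline and at 0.753, 0.326 and 0.328 CPM in the EUE control, with at most 2 counts in a PEG library. Such a split between experiments can also come from how reads of near-identical copies were assigned, which was not tested.

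The 5 lower members were mostly at or below 1 CPM in the EUE epiline, with a mean under 1 CPM in 4 of 5, so they met the minimum through the EUE control. ERF79905 had the largest difference among the 3 present in PEG and the highest CPM of the 5. It was at 2.34, 1.39 and 1.52 CPM in the EUE epiline, against 6.83, 4.62 and 9.79 CPM in the EUE control. All 6 PEG libraries lay between 4.02 and 8.39 CPM, above every EUE epiline library and over a range that overlapped the EUE control. The means were 1.75 ± 0.514 CPM in the epiline and 7.08 ± 2.59 CPM in the control (SD, n = 3 each), a ratio of 0.247.

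ERC59537 was at 1.22, 0.249 and 0.733 CPM in the EUE epiline and at 2.47, 1.52 and 2.95 CPM in the EUE control. It was at 3.01 and 2.67 CPM in PEG-1, at 2.30 and 2.82 CPM in PEG-2 and at 1.76 and 2.54 CPM in PEG control. Both PEG-1 libraries lay above both PEG control libraries, the opposite direction to the EUE epiline.

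ERF86571-ERC26059 was the lower member with the largest difference, -2.30, a size that depends on the pseudocount (-1.03 with a pseudocount of 2 in place of 0.5). It had 2, 4 and 0 counts in EUE epiline replicates 1, 2 and 3 (0.0531, 0.0995 and 0 CPM), against 92, 82 and 82 counts in the EUE control (2.47, 2.23 and 1.92 CPM). The PEG libraries held 10 and 26 counts in PEG-1, 18 and 18 in PEG-2 and 20 and 16 in PEG control, between the EUE groups. Only 2 of the 27792 IDs (0.0072%) had all 6 PEG libraries between an EUE epiline below and an EUE control above.

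The other 2 lower members differed in PEG. ERF56229, picked out after its values were seen, was at 1.06, 0.498 and 0.831 CPM in the EUE epiline and at 2.74, 2.83 and 1.41 CPM in the EUE control, and its PEG libraries lay between 1.98 and 2.96 CPM. ERF83558-ERC35574, likewise, had 2, 38 and 20 counts in the EUE epiline and 78, 72 and 62 counts in the EUE control, and 0 counts in all 6 PEG libraries. Its PEG differences of 0.00 come from these zeros.

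Which EUE group departed from the rest of the study varied among the members. All 3 EUE epiline libraries lay above all 9 other libraries in 18 of 40 higher members (1.44% of all IDs, and 26 of the 454 other IDs that rose in EUE). In 8 of 40 it was instead the EUE control that lay below all 9 others, PEG lines and EUE epiline alike (0.669% of all IDs, and 46 of 454), and in the remaining 14 neither held. Of the 5 lower members, 4 had the EUE epiline below all 9 others (0.295% of all IDs), and 2 had the EUE control above all 9 others (0.461%), ERF83558-ERC35574 and ERF86571-ERC26059. In ERF86571-ERC26059 both held. In 7 of the 18 all 6 PEG libraries lay below all 6 EUE libraries (8.57% of all IDs), so the EUE control stood apart from PEG too. Likewise ERF78022, among the 8, had all 6 PEG libraries above all 6 EUE libraries (3.61% of all IDs). ERF83558-ERC35574 had 0 counts in PEG. The EUE separation that chose the members is part of each condition that sets an EUE group apart from all 9 others, so the counts describe and do not test.

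**Figure D5:**
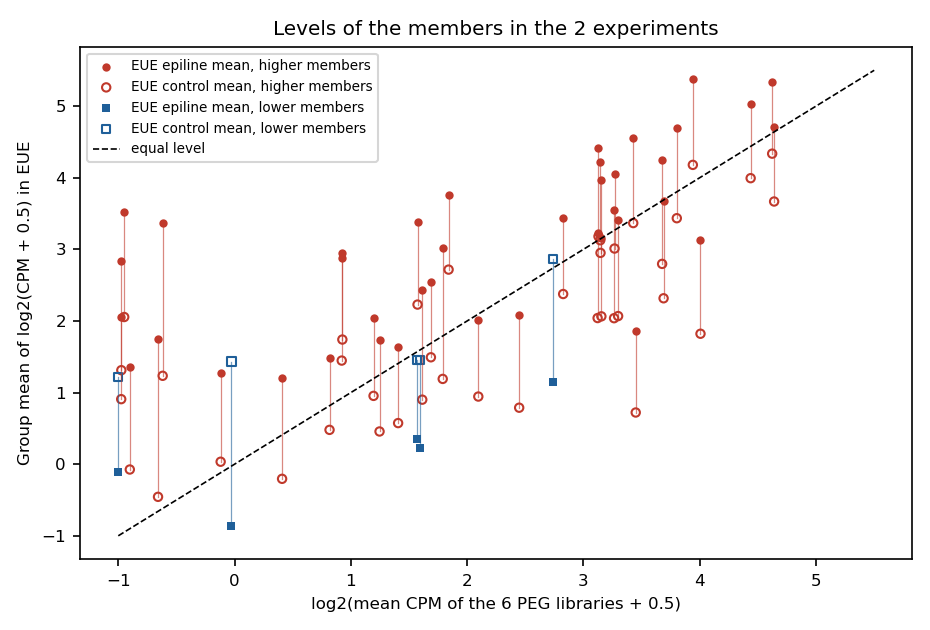
EUE epiline mean (filled) and EUE control mean (open) of each member, as log2(CPM + 0.5), against the log2 of its mean CPM plus 0.5 over the 6 PEG libraries; circles are the 40 higher members, squares the 5 lower members, and the dashed line marks equal levels. Points at the left are members with under 1 CPM in PEG (8 higher and 2 lower); elsewhere the PEG level falls near the epiline mean for some members and near the control mean for others.

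Levels were then compared across the experiments, in comparisons that share the EUE and PEG control libraries with the rule. The control stock, the experiment and the sequencing cannot be told apart in them. Adjusted p-values of single members in these comparisons describe members already chosen from the same libraries and are no separate test. The EUE control against PEG control comparison called 413 IDs higher (1.13% of 36410) and 659 lower (1.81%) by edgeR's quasi-likelihood test at an adjusted p of 0.05. Among the 40 higher members 5 were called higher, all with under 1 CPM in PEG, and 2 were called lower. Among the 5 lower members 1 was called higher, ERF83558-ERC35574. With the replicate block the members called were 17, where 15.7% of all IDs were called. The block takes replicate differences within each experiment out of the spread. A comparison across experiments should carry that spread, so blocked p-values can be too small here. The 8 members called became 5 without EUE control replicate 1, EUE control replicate 3 or PEG control replicate 1, and 3 without PEG control replicate 2.

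The 2 members called lower in the EUE control than in PEG control were ERF78022 and ERF82334-ERC36922, picked out after their values were seen. ERF78022 was at 1.81, 2.79 and 5.77 CPM in the EUE epiline and at 1.13, 0.815 and 1.59 CPM in the EUE control, and at 16.7 and 7.06 CPM in PEG-1, 13.6 and 6.96 CPM in PEG-2 and 8.98 and 9.30 CPM in PEG control. It was the only higher member with all 6 PEG libraries above all 6 EUE libraries (3.61% of all IDs). The EUE control stood lower than PEG control by a log2 fold change of -3.05 ± 0.53 (SE, adjusted p = 0.0109, edgeR), and the call was lost without PEG control replicate 2 (adjusted p = 0.0670; range over 17 alternatives 1.97e-06 to 0.0670).

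ERF82334-ERC36922 was at 5.63, 6.97 and 14.2 CPM in the EUE epiline, at 3.93, 1.96 and 3.56 CPM in the EUE control, at 16.1 and 16.5 CPM in PEG-1, at 15.6 and 17.6 CPM in PEG-2 and at 9.09 and 18.5 CPM in PEG control. All 6 PEG libraries lay above the EUE control and overlapped the EUE epiline. The log2 fold change of the EUE control over PEG control was -2.25 ± 0.45 (SE, adjusted p = 0.0223, edgeR). That call was lost without any 1 of the EUE control libraries or PEG control replicate 2 (range over 17 alternatives 0.000141 to 0.285).

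The EUE epiline against PEG control comparison called 652 IDs higher (1.79% of 36410) and 815 lower (2.24%). Of the 40 higher members 10 were called higher, the 6 with under 0.2 CPM in PEG and 4 present in PEG, and of the 5 lower members 3 were called lower. The members called were 22 with the replicate block, under the same limit of that block, where 18.5% of all IDs were called. They were 21 by DESeq2, where 7.97% were called. Each of these counts holds 1 higher member called lower and 1 lower member called higher. The 13 became 21 without EUE epiline replicate 1, 8 without PEG control replicate 1 and 5 without PEG control replicate 2. The members' EUE difference adds to their difference from PEG control, so a share above the background follows in part from how they were chosen. The same holds for the fold changes and adjusted p-values of the single members that follow.

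The 4 higher members present in PEG were ERF55671, ERF60881, ERF66362 and ERF96968, the last 3 picked out after their values were seen. ERF60881 was at 9.62, 12.1 and 19.0 CPM in the EUE epiline and at 6.51, 5.98 and 5.76 CPM in the EUE control, and its PEG libraries lay between 2.32 and 3.61 CPM. The EUE epiline exceeded PEG control by a log2 fold change of 2.12 ± 0.32 (SE, adjusted p = 0.00454, edgeR). All 6 EUE libraries were above all 6 PEG libraries, as in 7 of 40 higher members and 1 of 5 lower members (8.57% of all IDs).

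ERF96968 was at 6.38, 11.8 and 13.0 CPM in the EUE epiline, at 5.33, 3.80 and 3.61 CPM in the EUE control and between 1.80 and 3.45 CPM in PEG. Its log2 fold change over PEG control was 2.22 ± 0.36 (SE, adjusted p = 0.00643, edgeR). The calls of ERF60881 and ERF96968 were lost only without PEG control replicate 2 (adjusted p = 0.0674 and 0.0780, the highest of 17 alternatives; the lowest were 7.01e-08 and 2.96e-07).

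ERF66362 was at 5.84, 6.12 and 9.04 CPM in the EUE epiline, at 3.44, 5.16 and 1.17 CPM in the EUE control and between 1.11 and 1.88 CPM in PEG, with a log2 fold change of 2.42 ± 0.52 over PEG control (SE, adjusted p = 0.0262, edgeR). The call was lost without EUE epiline replicate 3 or either PEG control library (range over 17 alternatives 0.000121 to 0.201). ERF55671, whose libraries are given above, exceeded PEG control by 1.62 ± 0.40 (SE, adjusted p = 0.0488, edgeR). That call was lost in 11 of the 12 repeats that left out a library, all but the one without EUE epiline replicate 1 (range over 17 alternatives 0.00241 to 0.282).

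The 3 lower members called lower than PEG control were ERF79905, ERF56229 and ERF86571-ERC26059. ERF79905 had a log2 fold change of -1.77 ± 0.39 (SE, adjusted p = 0.0295, edgeR), lost without EUE epiline replicate 2 or 3 or either PEG control library (range over 17 alternatives 0.00104 to 0.134). ERF56229 had -1.87 ± 0.38 (SE, adjusted p = 0.0207, edgeR), lost without EUE epiline replicate 2 or 3 or PEG control replicate 2 (0.000376 to 0.181). ERF86571-ERC26059 was called lower at an adjusted p of 0.0243 by edgeR, lost without either PEG control library (0.000568 to 0.0949), and its fold change is not given because the EUE epiline held 6 counts in all.

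The IDs themselves come in 3 forms, ERF alone, ERC alone and an ERF and an ERC number joined, whose meaning is not given in the sources used here. Of the 40 higher members 18 were ERF, 9 ERC and 13 joined, and of the 5 lower members 2, 1 and 2. Over the 27792 IDs the shares were 25.6% ERF, 20.6% ERC and 53.8% joined, and over the 454 other IDs that rose in EUE they were 24.0%, 18.7% and 57.3%. Joined IDs thus made up 32.5% of the higher members. No test was made of this share.

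Some members had neighbouring numbers. Within 10 places in the order of numbers, counted among IDs with counts, the pairs were ERF78776 with ERF78791, ERF95156 with ERF95164-ERC57285, ERF96968 with ERF96985, and ERF56229 with ERF56240-ERC25350. The last pair joined a lower and a higher member. ERF96985 was at 7.17, 11.8 and 16.6 CPM in the EUE epiline and at 4.73, 2.23 and 4.36 CPM in the EUE control, and unlike ERF96968 its PEG libraries, between 5.13 and 11.9 CPM, lay above the EUE control. How often other IDs fall this close was not counted, so the pairs are a description only. Whether neighbouring numbers mean neighbouring genes is not given in the sources used here.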

How the data were processed

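Polysomal RNA of leaf 4 was sequenced in 12 libraries. The authors deposited raw counts of reads for each gene ID, with 1 column per library, and all 12 columns were matched to samples by name. GSNAP and SAMtools are listed in the submitters' processing notes. The sources used here give no genome, annotation, counting program or use of strand, so reads of near-identical or overlapping genes could have been shared between IDs.

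CPM used column totals. The spread and the tests came from edgeR 4.0.16 (R 4.3.3). Counts were filtered by filterByExpr (minimum count 10) and scaled by TMM, and quasi-likelihood tests were made in 1 fit over all 12 libraries and 5 groups, with Benjamini-Hochberg adjustment over 36410 tested IDs and a threshold of 0.05. Standard errors came from the F statistic. DESeq2 1.42.0, DESeq2's size factors, no filter, counts divided by 2, the replicate number as a block and each library left out in turn were alternatives. For the rule, the scaling, pseudocount, minimum and limits were varied. The code was tested on simulated counts. Totals of 36210542 to 42696798 counts limit the precision of low levels. The p-values set a group difference against a spread fitted over all 12 libraries, with 2 or 3 libraries in each group.

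Same-numbered libraries were checked for pairing over the 17455 IDs that averaged 5 CPM or more. Their deviations from the group means correlated at 0.617, 0.739 and 0.614 in EUE, where all differently numbered pairs were at or below -0.05. The EUE numbers were taken as pairing in the blocked fit, an alternative. The main fit had no block, so its calls, standard errors and intervals leave this pairing out. With 2 numbers in PEG the libraries share only a number there.

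IDs were named by rule: in each direction the 2 members with the largest EUE difference among those with at least 1 CPM in PEG, the 1 with the largest among the others, and the 1 with the highest CPM in EUE. Others are marked in the text. The members and lists were chosen with earlier results of these data known. No sequences of these IDs were used here.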

Additional observations from a re-analysis of the deposited data

Results flagged for a closer look

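In 5 members every library of a PEG line lay on the opposite side of PEG control from the EUE epiline's side of EUE control. These differences between the lines' effects were not tested one by one, and edgeR called 0 of 36410 IDs in the comparison of the EUE effect with the mean PEG effect. Both PEG-2 libraries lay below both PEG control libraries in 4 of 40 higher members (10.0%), against 11.4% of all 27792 IDs. Both PEG-1 libraries did in 1 of 40 (2.5%), against 12.1% of all IDs. The higher members thus showed this order no more often than IDs at large. Both PEG-1 libraries lay above both PEG control libraries in 1 of 5 lower members, against 18.4% of all IDs.

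ERF95668 was higher in the EUE epiline, at 3.72, 6.62 and 14.8 CPM, than in the EUE control, at 2.58, 1.74 and 2.44 CPM, while PEG-2 had 1.10 and 1.10 CPM, against 2.04 and 1.48 CPM in PEG control, a log2 difference of -0.49. ERC50353 was at 18.2, 21.3 and 41.6 CPM in the EUE epiline and at 13.1, 9.13 and 9.13 CPM in the EUE control, and at 10.7 and 11.6 CPM in PEG-2, against 12.2 and 12.9 CPM in PEG control, a difference of -0.17. ERF80190 was at 0.691, 1.49 and 4.59 CPM in the EUE epiline and at 0.538, 0.652 and 0.0468 CPM in the EUE control, with a PEG-2 difference of -0.17.

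ERC59537, lower in the EUE epiline, had a PEG-1 difference of 0.35. ERF78791 had a difference of -0.15 in PEG-1 and of -0.15 in PEG-2, which compares 0 counts in every library of the lines with 2 counts in each PEG control library and is no more than 1 read pair per library.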

How the results depend on the processing

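The 40 higher and 5 lower members depended on the settings of the rule. Higher members numbered 23 with a pseudocount of 2, 25 with a minimum of 5 CPM, 9 with a PEG limit of 0.25, 162 with a PEG limit of 1 and 2 with a minimum EUE difference of 2. Lower members numbered 2, 0 and 2 in the first 3 of these and 1 with the minimum difference of 2. With at least 1 CPM also required in PEG, a setting chosen after seeing the data, 32 higher and 3 lower members were left. Where the replicate block was applied as a rule that every same-numbered EUE pair differs by 1 or more, 3 higher and 2 lower members were left. Leaving out 1 library gave 19 to 116 higher members, with 11 to 40 shared, and 4 to 19 lower members. TMM scaling gave 34 higher members, 30 of them shared, and DESeq2's size factors 33, of which 31 were shared.

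IDs called in the EUE epiline against the EUE control numbered 0, 382 with DESeq2, 27 with no filter, 69 with the replicate block and 0 to 205 with 1 library left out; members called numbered 20, 2, 5 and 0 to 11. The EUE effect minus the mean PEG effect called 2 IDs and 1 member with DESeq2, and 0 to 0 with 1 library left out. EUE control against PEG control called 1072 IDs, 2306 with DESeq2, 5709 with the replicate block and 300 to 1067 with 1 library left out, and 8 members, 17 with the block and 3 to 9 with 1 left out. EUE epiline against PEG control called 1467 IDs, 3128 with DESeq2, 6743 with the block and 348 to 1868 with 1 left out, and 13 members, 21, 22 and 5 to 21. The PEG-1 intervals within 1 numbered 1 with no filter, 3 with the block and 0 to 8 with 1 library left out, and the PEG-2 intervals 10 with the block and 1 to 8. The block lowered the fitted biological coefficient of variation to 18.7% from 32.2%, so its counts across experiments can rest on too small a spread. The cause of the other changes was not tested.

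With a pseudocount of 2 the EUE differences were 1.19 for ERF90444, -1.03 for ERF86571-ERC26059, -1.25 for ERF79905 and -0.66 for ERC59537. No member count, call or named EUE difference changed direction under the settings run. The median EUE difference over all 27792 IDs was 0.03 with column totals, -0.02 with TMM and -0.02 with size factors, and that of PEG-1 was 0.02, -0.02 and -0.0029, shifts under 0.1. The median over all 45 members of replicate 2 minus replicate 1 moved by less than its spread under TMM scaling and a pseudocount of 2. Depth limits the members with few counts, where 1 read pair is a large part of the level.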
